A study of Mus musculus with 6 samples.

Results

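Extracellular ATP and adenosine signalling was followed through 10 listed mouse genes, which encode 2 ectonucleotidases, 3 P2Y receptors, 2 P2X receptors and 3 adenosine receptors. A gene was taken where a transcript cluster, the unit in which the array reports a gene, was annotated with its symbol alone, and where there were several such clusters the one with the highest mean over the 6 arrays was used. This gave 1 cluster each for 8 of the 10 genes, out of 23521 clusters with 1 symbol and 41345 in all. *Adora1* and *Adora2a* were not analysed here. Each of the 8 genes had 1 such cluster, so none of their rows was selected on its measured signal. Some genes of the other lists, such as *Alpl* and *Slc29a3*, had 2 clusters, and their rows were selected on the mean. The list was put together with earlier results of these data known.

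Hippocampal RNA was measured in 3 wild-type mice and in 3 mutants of the genotype *App* NL-G-F/NL-G-F with *Mutyh*-/-, all female and 6 months old, with 1 array per mouse. The mutant mice carry, on both copies of the endogenous *App* gene, a humanized amyloid-β stretch with the Swedish, Arctic and Beyreuther/Iberian mutations, and lack *Mutyh*, which encodes a DNA glycosylase, in the whole body. Wild-type mice carry neither change, and both lines share the C57BL/6J background and were kept as separate inbred strains. The groups therefore differ at 2 loci, and knock-in mice that keep *Mutyh* were not analysed here. The signal of *Mutyh* lay under the intensity minimum of 50 (5.64 on the log2 scale) in both groups (5.11 to 5.44 in wild-type and 5.37 to 5.46 in mutant mice on the log2 scale, overlapping), so this array gives no check of the deletion. *App* was 12.05 ± 0.09 and 11.94 ± 0.12 (mean ± SD, n = 3 each). Whole hippocampus was used, so fewer cells of a type and less RNA per cell cannot be told apart.

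ATP that leaves damaged or active cells is a danger and a signalling molecule of the brain. Ectonucleotidases on the cell surface cut it stepwise to ADP, AMP and adenosine, P2X receptors are ion channels opened by ATP, P2Y receptors are G-protein-coupled receptors for nucleotides such as ADP and UDP, and P1 receptors bind adenosine. In the brain, microglia carry many of these proteins, sense ADP through P2Y12 when they send processes to an injury, and take up debris on a UDP signal through P2Y6.

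The stretch of 250 bases before the annotated start was read from RefSeq (GRCm38.p6) for 7 of the 8 genes, and is shown for *Entpd1*, the gene with the largest difference among the 8, and for *P2ry12* and *P2ry13*, which lie next to each other on chromosome 3. *Entpd1* has 2 annotated starts, at chr19:40612116-40612365 and chr19:40659520-40659769, both on the plus strand. The stretch of *P2ry12* lies at chr3:59262986-59263235 and that of *P2ry13* at chr3:59210883-59211132, both on the minus strand. Capitals mark the letters GAGGAA, a core bound by the myeloid factor PU.1, on either strand.
Entpd1, first start: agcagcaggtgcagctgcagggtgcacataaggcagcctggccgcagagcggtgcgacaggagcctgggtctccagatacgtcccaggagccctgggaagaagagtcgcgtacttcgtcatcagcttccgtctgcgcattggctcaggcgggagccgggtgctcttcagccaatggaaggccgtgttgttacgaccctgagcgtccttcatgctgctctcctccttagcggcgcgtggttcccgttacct
Entpd1, second start: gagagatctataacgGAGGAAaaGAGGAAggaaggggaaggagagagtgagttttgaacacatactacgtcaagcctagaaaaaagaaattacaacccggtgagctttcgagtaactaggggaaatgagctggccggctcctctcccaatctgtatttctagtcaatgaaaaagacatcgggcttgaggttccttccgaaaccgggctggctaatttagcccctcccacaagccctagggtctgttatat
P2ry12: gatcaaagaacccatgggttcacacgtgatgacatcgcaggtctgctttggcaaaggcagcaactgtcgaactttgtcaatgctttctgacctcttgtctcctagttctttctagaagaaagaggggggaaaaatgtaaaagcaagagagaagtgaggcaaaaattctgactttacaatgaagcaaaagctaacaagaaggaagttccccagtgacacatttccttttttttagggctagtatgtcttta
P2ry13: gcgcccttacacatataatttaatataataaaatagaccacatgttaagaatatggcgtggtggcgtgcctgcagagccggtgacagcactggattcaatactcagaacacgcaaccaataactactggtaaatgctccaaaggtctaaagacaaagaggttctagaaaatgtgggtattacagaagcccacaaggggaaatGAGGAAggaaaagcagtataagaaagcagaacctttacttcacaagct

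The second *Entpd1* start had 2 such matches, beginning 235 and 227 bases before the start, and that of *P2ry13* had 1, beginning 48 bases before it. The first *Entpd1* start and *P2ry12* had none. *Adora3* had 1 match, on the opposite strand, and *Nt5e*, *P2rx4* and both starts of *P2rx7* had none. The letters were thus found before 3 of 9 starts, against 23.3% of 32851 windows of the same length in the table and 22.2% of the 21263 windows of protein-coding genes. The first *Entpd1* stretch had 18 CG pairs (62.4% G and C), while the second had 8 pairs (47.2%), *P2ry13* 5 (41.6%) and *P2ry12* 3 (41.6%), beside a median of 10 pairs over windows of protein-coding genes and 6 over all windows. A match is a description of these letters and not of binding.

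*Entpd1*, encoding CD39, which cuts extracellular ATP and ADP to AMP, had a higher deposited signal in mutant than in wild-type mice. Its log2 signal was 7.04, 7.06 and 6.96 in wild-type replicates 1, 2 and 3, and 7.82, 7.77 and 7.79 in mutant replicates 1, 2 and 3. The groups lay 0.71 apart at their nearest arrays, a distance larger than the spread within either group (SD 0.05 and 0.03, n = 3 each). The log2 difference was 0.77 (standard error 0.07, 95% interval 0.62 to 0.93), or 171% wild type. It was called in limma's test at an adjusted *p* of 0.0252, among 12 higher calls in 21159 tested transcript clusters (0.0567%), and 80 tested clusters had a larger log2 difference. Clusters were tested where the mean of 1 or both groups reached the intensity minimum. The call was lost without any 1 of the 6 arrays (adjusted *p* = 0.0870 to 0.220), with differences of 0.75 to 0.79. For this gene the paper reports a higher wild-type mean, about the same mutant mean and a smaller difference. How much of the 0.77 came from processing was not tested.

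A property of the deposited values bears on every difference between the groups. Any 2 mutant arrays held exactly the same value in 1916 to 2123 of the 41345 clusters, any 2 wild-type arrays in 34 to 47, and an array of each group in 0 to 3. The wild-type arrays were also used in an earlier series. How each group's array files were summarized is not given in the sources used here, and a difference of that kind between the groups cannot be told apart from genotype. Precision is limited by the 3 arrays per group.

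*Nt5e*, encoding CD73, the enzyme that cuts AMP to adenosine, lay under the intensity minimum in both groups. Its log2 signal was 5.38, 5.55 and 5.63 in wild-type mice and 5.55, 5.54 and 5.30 in mutant mice. The groups overlapped, and the difference was −0.05 (95% interval −0.32 to 0.21) in the fit without the minimum. A change of *Nt5e* within this interval was not detectable at this signal.

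**Figure D1:**
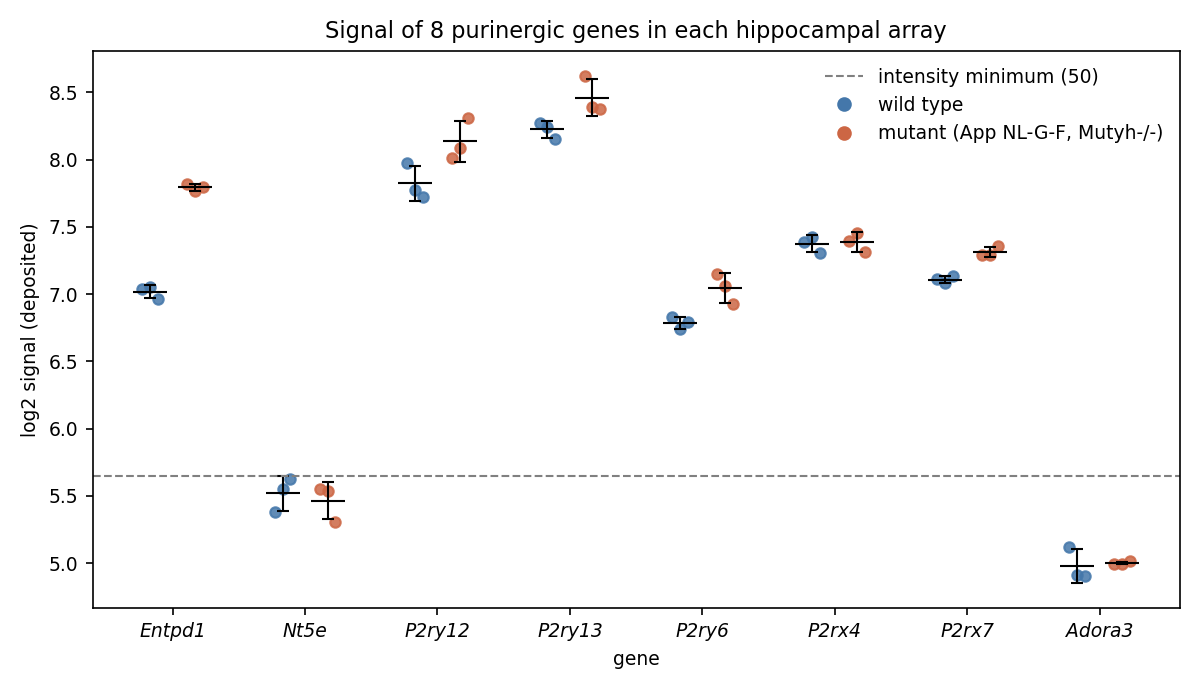
Deposited log2 signal (y axis) of the 8 genes (x axis) in each array, with wild-type mice in blue and mutant mice in orange. Black bars give the mean and SD of 3 arrays and the dashed line the intensity minimum of 50. The groups are apart for Entpd1, P2ry12, P2ry13, P2ry6 and P2rx7 and overlap for Nt5e, P2rx4 and Adora3.

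The 3 P2Y receptor genes were each higher in all mutant arrays than in any wild-type array, as were 13.9% of all tested clusters. Their differences were smaller than that of *Entpd1*, and none was called at an adjusted *p* under 0.05. *P2ry12* encodes the ADP receptor by which microglia extend processes. The log2 signal of this gene was 7.97, 7.77 and 7.72 in wild-type mice and 8.01, 8.08 and 8.31 in mutant mice. The nearest arrays, wild-type replicate 1 and mutant replicate 1, were 0.04 apart, less than the SD of either group (0.13 and 0.16). The difference was 0.31 (95% interval 0.05 to 0.57), 124% wild type, with an unadjusted *p* of 0.0246 and an adjusted *p* of 0.310 (limma). It ran from 0.23 to 0.39 with 1 array left out. For *P2ry12* too, the paper reports a higher wild-type mean, a slightly lower mutant mean and a smaller difference. That difference did not pass the paper's threshold of 0.05. How much of the 0.31 came from processing was not tested.

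*P2ry13* encodes a second Gi-coupled ADP receptor of microglia. Its log2 signal was 8.27, 8.25 and 8.16 in wild-type mice and 8.62, 8.39 and 8.37 in mutant mice. Replicate 1 of the mutant mice was the highest for *P2ry13* and the lowest for *P2ry12*, so the 2 neighbours did not follow each other from mouse to mouse within that group. The difference was 0.24 (95% interval 0.02 to 0.45; limma, adjusted *p* = 0.337), and 0.16 without that array. In the GRCm38.p6 annotation the 2 genes are 5388 bases apart (*P2ry13* at chr3:59207892-59210882, *P2ry12* at chr3:59216271-59262985). Both lie inside the span of *Med12l*, a Mediator subunit gene on the other strand. *Med12l* was 9.07 ± 0.06 in wild-type and 8.98 ± 0.07 in mutant mice (mean ± SD, n = 3), with overlapping groups (limma, adjusted *p* = 0.603). The higher signals were thus not shared by *Med12l*. A further receptor gene of the same stretch, *P2ry14*, was 5.75 ± 0.10 in wild-type mice and 5.80 in each mutant mouse (limma, adjusted *p* = 0.789). The *P2ry14* signal lay close to the intensity minimum and its mutant arrays held 1 identical value, so it says little about a change there.

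*P2ry6* encodes the UDP receptor that starts uptake of debris by microglia. Log2 signals were 6.83, 6.74 and 6.79 in wild-type mice and 7.15, 7.06 and 6.93 in mutant mice. The lowest mutant array was 0.10 above the highest wild-type array. The difference was 0.26 (95% interval 0.07 to 0.45), 119.6% wild type (limma, adjusted *p* = 0.280), and ran from 0.20 to 0.32 with 1 array left out.

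The 2 P2X genes are also neighbours, 15181 bases apart on chromosome 5 (*P2rx7* at chr5:122643927-122692336, *P2rx4* at chr5:122707518-122729739). *P2rx7* encodes the ATP-gated channel that in macrophages and microglia leads to inflammasome activation and release of interleukin-1β. The arrays gave log2 signals of 7.11, 7.08 and 7.13 in wild-type mice and 7.29, 7.29 and 7.36 in mutant mice. The groups were 0.16 apart and both were narrow (SD 0.02 and 0.04), although replicates 1 and 2 of the mutant mice held the same deposited value to the last digit. The difference was 0.20 (95% interval 0.05 to 0.35), 115% wild type (limma, unadjusted *p* = 0.0153, adjusted *p* = 0.277).

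*P2rx4* encodes the ATP-gated channel known from microglia in neuropathic pain. It gave log2 signals of 7.39, 7.43 and 7.31 in wild-type mice and 7.40, 7.45 and 7.31 in mutant mice. The groups covered nearly the same range. The difference was 0.01 (95% interval −0.16 to 0.19; limma, adjusted *p* = 0.955), and its sign turned when each array was centred on its median (−0.037) or on neuron markers (−0.11). The *P2rx7* signal relative to *P2rx4*, taken within each array, was 0.19 higher in mutant mice (standard error 0.08), and the groups did not overlap. The exact two-sided permutation *p* was 0.1, the smallest that 3 against 3 arrays can give.

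Of the adenosine receptors, *Adora3* was measured. It encodes a Gi-coupled receptor known in rodents from mast cells and microglia. The 6 arrays gave log2 signals of 5.12, 4.91 and 4.90 in wild-type mice and 4.997, 4.997 and 5.01 in mutant mice, all below the intensity minimum, so the arrays give no comparison of its level beyond overlap of the groups. The difference was 0.02 (95% interval −0.19 to 0.24) in the fit without the minimum. The gene lies inside the annotated span of *Tmigd3*, which was not analysed here, so signal from either cannot be told apart.

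Over the 6 genes that were tested, all of which reached the minimum in both groups, 1 was called higher and none lower at an adjusted *p* under 0.05. At an unadjusted *p* under 0.05, 5 were higher, where 8.88% of all tested clusters were. The mutant and wild-type arrays were apart, with the former higher, in 5, against 13.9% of all tested clusters, and lower in none (8.11%). The median log2 difference was 0.25, beside 0.02 over all tested clusters. With each array centred on its median over all clusters, none of the 6 was called (*Entpd1*, limma, adjusted *p* = 0.0519). There 1 was higher at an unadjusted *p* under 0.05 (4.88% of all tested clusters) and 2 were apart (7.27%). The median was 0.20 beside −0.03 over all tested clusters. When medians over tested clusters only were used, 1 was called (*Entpd1*, limma, adjusted *p* = 0.0260). In that setting 5 were higher at an unadjusted *p* under 0.05 (8.28%) and 5 were apart (12.7%).

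The *Entpd1* difference was set against those of the other 5 tested genes within each array, a comparison chosen after the values had been seen. The *Entpd1* signal relative to theirs was higher in mutant mice by 0.46 against *P2ry12* (standard error 0.12), 0.54 against *P2ry13* (0.07), 0.52 against *P2ry6* (0.07), 0.76 against *P2rx4* (0.05) and 0.57 against *P2rx7* (0.05). The groups were apart in all 5 comparisons, each with an exact permutation *p* of 0.1, the smallest possible. Together with the pair of P2X genes, 6 pairs were compared, and the adjusted *p* was 0.1 for each (exact permutation test, Benjamini-Hochberg).

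The remaining genes of the pathway, a fixed list of 34, covered other enzymes, receptors, ATP release and adenosine clearance. Of these, 30 had a cluster of their own and 14 were tested, and none was called at an adjusted *p* under 0.05 in either direction. In all tested clusters 1 was called lower (0.00473%). At an unadjusted *p* under 0.05, 1 of the 14 was higher and 1 lower (8.88% and 4.75% of all tested clusters). The median difference of the 14 was 0.03.

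Among the other ectonucleotidases, *Entpd3*, encoding a surface enzyme for ATP and ADP that is found in neurons, lay below wild type while *Entpd1* lay above. The log2 signals were 6.59, 6.47 and 6.42 in wild-type mice and 6.23, 6.06 and 6.02 in mutant mice. All 3 mutant arrays were under the lowest wild-type array. The difference was −0.39 (95% interval −0.60 to −0.18), 76.2% wild type (limma, unadjusted *p* = 0.00308, adjusted *p* = 0.189). *Alpl*, encoding the tissue-nonspecific alkaline phosphatase, was 6.83 ± 0.22 and 6.69 ± 0.14 (mean ± SD, n = 3 each; limma, adjusted *p* = 0.652). *Entpd8*, *Enpp3* and *Acpp* were under the minimum, and *Entpd2*, *Enpp1* and *Cd38* were not analysed here.

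Of the other receptors, *P2rx5* (difference 0.0063), *P2ry1* (0.05) and *P2ry14* (0.05) were tested, with overlapping groups and group means of 5.64 to 5.80. *P2ry1* encodes a Gq-coupled ADP receptor. The remaining 7 P2 receptor genes of the list (*P2rx1*, *P2rx2*, *P2rx3*, *P2rx6*, *P2ry2*, *P2ry4* and *P2ry10*) were under the minimum in both groups, and *Adora2b* was not analysed here. The P2 receptors with clear signal on these arrays were thus the 5 of the main list.

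ATP release was covered by 4 tested genes, and none had an unadjusted *p* under 0.05. *Gja1*, encoding the astrocyte hemichannel and gap junction protein connexin 43, differed by 0.10 (standard error 0.10). *Panx2*, encoding a pannexin of neurons, differed by −0.15 (0.10), and *Panx1*, encoding the pannexin channel that releases ATP, by −0.06 (0.12). *Lrrc8a*, encoding the obligatory subunit of volume-regulated anion channels, was higher in all mutant arrays (0.14, standard error 0.06), with the same value in a pair of them.

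Adenosine uptake and clearance was covered by 5 tested genes. *Slc29a3*, encoding the equilibrative nucleoside transporter ENT3 of lysosomes, was the 1 other pathway gene higher at an unadjusted *p* under 0.05. Log2 signals of this gene were 7.81, 7.50 and 7.54 in wild-type mice and 7.93, 7.84 and 7.84 in mutant mice. Wild-type replicate 1 was close to the mutant arrays, and the nearest pair was 0.03 apart. The difference was 0.26 (95% interval 0.02 to 0.49; limma, adjusted *p* = 0.343). *Adk*, encoding adenosine kinase, the main route of adenosine removal in astrocytes, was 8.28, 8.22 and 8.13 in wild-type and 8.39, 8.32 and 8.54 in mutant mice (difference 0.20; limma, adjusted *p* = 0.370). *Slc29a4*, encoding a monoamine transporter that also moves adenosine, differed by 0.37 with overlapping groups (standard error 0.19). The plasma membrane transporter genes *Slc29a1* (−0.11, standard error 0.11) and *Slc29a2* (−0.14, standard error 0.10) had intervals that included 0, and *Ada* and *Pnp*, for the enzymes that deaminate and split purine nucleosides, were under the minimum.

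**Figure D2:**
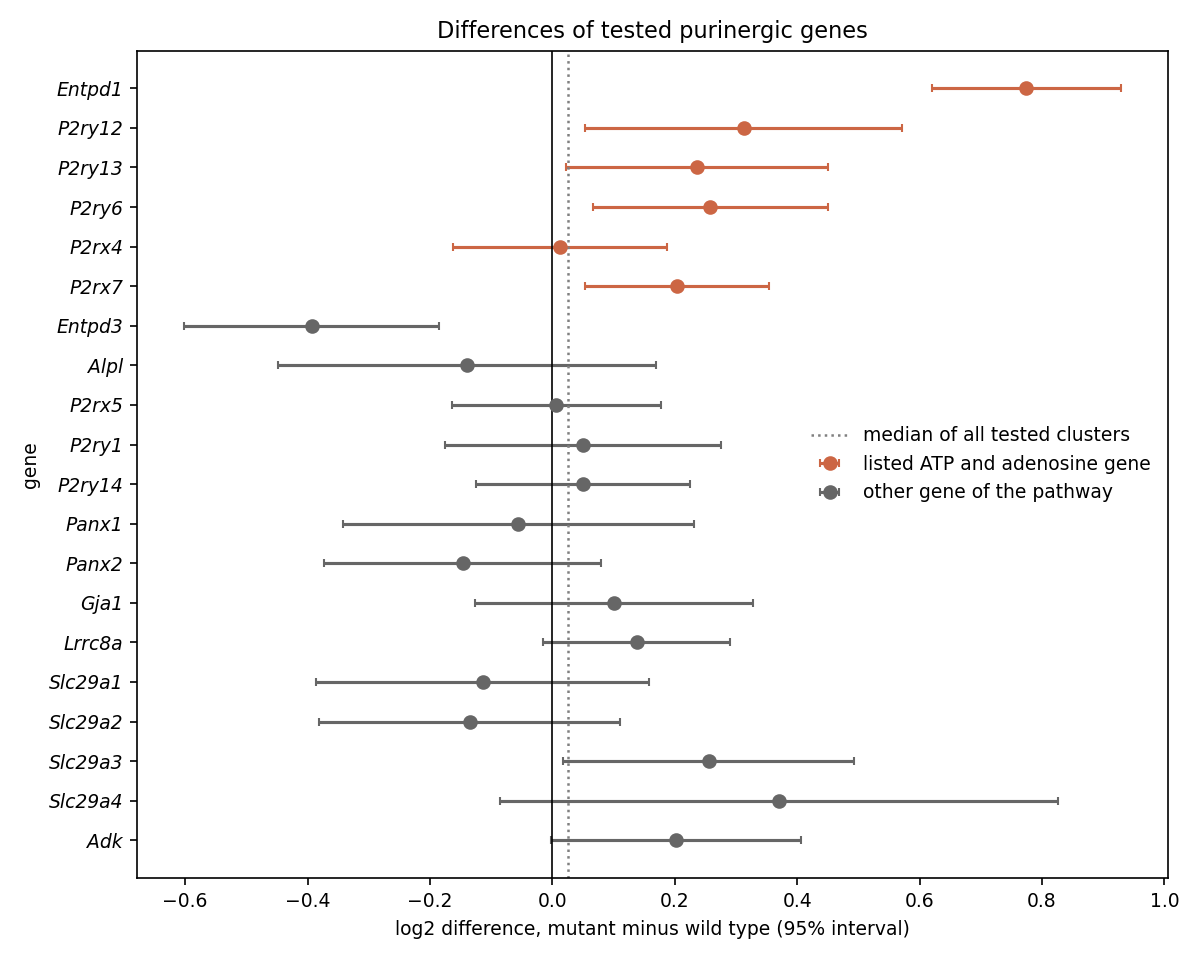
Log2 difference between mutant and wild-type mice (x axis) of the 6 tested genes of the main list (orange) and the 14 tested genes of the wider pathway (grey), 1 gene per line, with 95% intervals from limma (n = 3 per group). The dotted line is the median of all tested clusters (0.02). The interval of Entpd1 starts at 0.62, above the point of every other gene shown, and Entpd3 lies at −0.39.

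The main list holds genes that microglia are known to express, so microglia markers were read from the same arrays. Of 12 markers, 11 were tested, none was called and 10 had positive differences, with 6 higher and none lower at an unadjusted *p* under 0.05. The groups were apart, with mutant arrays higher, in 7 of the 11. Of all tested clusters, 56.8% had positive differences, and 8.88% were higher and 4.75% lower at that unadjusted *p*. The groups were apart, with mutant arrays higher, in 13.9% of all tested clusters. The mean log2 signal of the 11 was 7.22 to 7.36 in wild-type and 7.45 to 7.52 in mutant mice, a difference of 0.19. The markers were uneven. *Fcrls* (0.44), *Siglech* (0.39) and *Gpr34* (0.39) had the largest differences, while *Cx3cr1* (0.0037), the gene of the fractalkine receptor, and *Tmem119* (−0.12) had the smallest. All 11 reached the minimum. Of 7 markers of border macrophages, 4 were tested, with differences of 0.06 to 0.34 and 3 of them higher at an unadjusted *p* under 0.05. Of these 3, *Mrc1* and *F13a1* reached the minimum in mutant mice alone (means 5.97 and 5.82, wild type 5.63 and 5.56). Passing the minimum thus favoured a higher value for them, and the count is not read as a result. *Mrc1* (0.34) had the largest and *Cbr2* (0.06) the smallest difference, and *Cd163*, *Pf4* and *Ms4a7* were under the minimum. The share of cell number in the purinergic differences was not tested.

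Relative to the mean of the 11 microglia markers in the same array, *Entpd1* was 0.58 higher in mutant mice and the groups were apart (−0.33 to −0.22 in wild-type, 0.27 to 0.37 in mutant arrays). *P2ry12* was 0.12 higher, *P2ry6* 0.06, *P2ry13* 0.04 and *P2rx7* 0.0092, all with overlapping groups. *P2rx4* was 0.18 lower and the groups were apart. The exact permutation *p* was 0.1 for *Entpd1* and *P2rx4*, the smallest possible, 0.3 for *P2ry12*, 0.6 for *P2ry6* and 0.9 for *P2ry13* and *P2rx7* (two-sided, 6 genes compared, adjusted *p* = 0.3 for the first 2 and 0.6 to 0.9 for the others). The choice of markers changed this. Relative to *Cx3cr1*, *Tmem119* and *Csf1r* alone, *P2ry12* was 0.25 higher, *P2ry6* 0.19, *P2ry13* 0.17 and *P2rx7* 0.14, and *Entpd1* was 0.71 higher, all 5 with groups apart (exact permutation *p* = 0.1 each, the smallest possible, adjusted *p* = 0.12). *P2rx4* was 0.054 lower with overlapping groups (exact permutation *p* = 0.3).

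**Figure D3:**
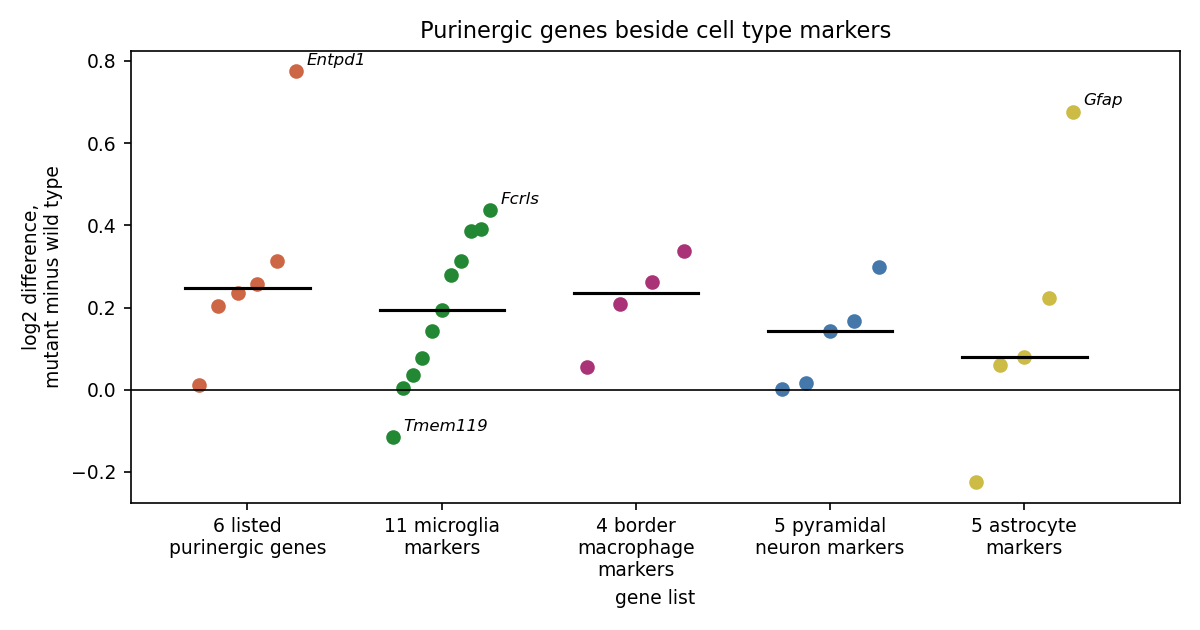
Log2 difference between mutant and wild-type mice (y axis) of each tested gene in the main purinergic list and in 4 marker lists (x axis), with a black bar at each list's median. Entpd1 (0.77) lies above all 11 microglia markers, the highest of which is Fcrls (0.44), and P2rx4 (0.01) lies among the lowest of them.

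Of other cells that carry purinergic genes, endothelial and mural cells gave 7 tested markers. Their differences ran from −0.43 to 0.08, with *Cldn5*, a tight junction gene, at the lower end (limma, adjusted *p* = 0.274) and none called. *Pecam1* was at the upper end, and CD39 is also found on endothelium. The share of these cells in the *Entpd1* difference was not tested. The 5 astrocyte markers had a median difference of 0.08, from −0.23 for *Aldh1l1*, with the mutant arrays all below wild type, to 0.68 for *Gfap*, with all above (limma, adjusted *p* = 0.385 and 0.0857). The 5 pyramidal neuron markers had a median of 0.14, from 0.0026 (*Slc17a7*) to 0.30 (*Neurod2*), and the 5 striatal neuron markers ran from −0.13 (*Drd2*) to 0.25 (*Penk*). Choroid plexus markers varied widely among mice of both groups, from a mean of 7.37 to 9.39 over 6 markers in wild-type and 7.95 to 9.15 in mutant arrays, and the differences ran from −0.25 (*Folr1*) to 0.56 (*Otx2*). Of 5 leukocyte markers, *Ly6c2* was tested (0.33, adjusted *p* = 0.272, limma). It reached the minimum in mutant mice alone (mean 5.72, wild type 5.39), so passing it favoured a higher value. *S100a8* (difference −0.04, groups overlapping), *S100a9* (0.13, groups overlapping) and *Cd3e* (0.48, groups apart) were under the minimum in both groups.

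The gene patterns nearest to each of the 5 genes whose groups were apart were sought among 13987 other tested genes, by the root mean square difference of log2 values centred on their own mean over the 6 arrays. For *Entpd1* these were *Cd68*, a lysosomal gene of phagocytes (0.05), *Lyz2*, encoding lysozyme (0.09), and *Exo1*, encoding an exonuclease (0.09). For *P2ry6* the nearest was *Csf1* (0.02), encoding the growth factor that microglia need, followed by *Ostc* and *Smc4* (0.03 each). The nearest to *P2ry12* were *Rpf2*, *Gm2888* and *Blzf1* (0.03 each), to *P2ry13* *Mrpl14*, *Rai2* and *Nat8f4* (0.03 to 0.04), and to *P2rx7* *Mcee*, *Rnf19a* and *Nup88* (0.02 each). All of these distances are over the same 6 arrays in 2 groups, and the 5 genes were chosen because their groups were apart. A near gene is thus mainly a gene with a similar difference between the groups. For *Cd68*, *Lyz2* and *Exo1* it was 0.85, 0.82 and 0.63, beside 0.77 for *Entpd1*. The distances give no link in function.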

How the data were processed

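RNA of 6 hippocampi was measured on GeneChip Mouse Gene 2.0 ST arrays. The deposited values are log2 signals of transcript clusters that the authors obtained with Transcriptome Analysis Console 4.0, and they were not normalized further. How signals were summarized, and with which genome build, is not given in the sources used here. Of 41345 clusters, 23521 had 1 gene symbol, 1820 several and 16004 none.

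Mutant and wild-type arrays were set against each other in limma 3.58.1 (R 4.3.3) over 21159 clusters with a mean intensity of at least 50 in 1 or both groups, with Benjamini-Hochberg adjustment over all of them and calls at an adjusted *p* under 0.05. Intervals are limma's moderated ones. The members and lists were chosen with earlier results of these data known, so no test over a list was made. All measured members were named. Of the wider pathway, the genes named were those with an unadjusted *p* under 0.05 and those with the highest signal, and of each marker list those with the largest and smallest difference and those that stand beside a result of a member. Chromosome positions and sequences are those of RefSeq, GRCm38.p6. Replicate numbers did not pair the mice, as the correlations of deviations between same-numbered arrays were −0.10, 0.02 and −0.06.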

Additional observations from a re-analysis of the deposited data

How the results depend on the processing

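The log2 differences of *Entpd1*, *P2ry12*, *P2ry13*, *P2ry6* and *P2rx7* stayed above 0 in all 16 alternatives, at 0.65 to 0.79 for *Entpd1*. The count of called members fell from 1 to 0 without an intensity minimum (*Entpd1*, adjusted *p* = 0.0611), with array median centring (0.0519), with centring on 5 neuron markers (0.150, chosen after seeing the data), and with a replicate block (0.375), and was 0 without any 1 array. The adjusted *p* of *Entpd1* ran from 0.00565 to 0.375. All calls over the array, 13 as reported, numbered 8 with the minimum in both groups, 43 with single-symbol clusters, 42 with array weights, 2 with the replicate block and 2 to 3 with 1 array left out. With array median or neuron marker centring, 1 of 6 members had an unadjusted *p* under 0.05 and 2 of 6 had groups apart. Of all tested clusters these were 4.88% and 7.27% with array medians, and 2.06% and 2.96% with neuron markers. The median difference of the members was 0.20 (array median) or 0.12 (neuron markers). When medians over tested clusters only were used for centring, both member counts stayed at 5 (8.28% and 12.7% of all tested clusters). There the median difference was 0.24 and 1 member was called (*Entpd1*, limma, adjusted *p* = 0.0260). With 1 array left out the member counts were 3 to 5 and 5 throughout, and the median difference was 0.21 to 0.27. *P2rx4* turned to −0.037 with array median centring and −0.11 with neuron marker centring, and ran from −0.021 to 0.050 with 1 array left out. Over the same omissions, the differences relative to microglia markers ran from −0.055 to 0.11 for *P2ry13*, −0.0068 to 0.14 for *P2ry6* and −0.029 to 0.056 for *P2rx7*. Neuron marker centring moved the median of all tested clusters from 0.02 to −0.10. Centring takes 1 value from each array, so it cannot change *Entpd1* relative to other clusters and tells nothing about that. Of other pathway genes, 1 was higher and 1 lower at an unadjusted *p* under 0.05 as reported. The higher ones were 2 with the minimum in both groups, single-symbol clusters or array weights, 3 with an intensity trend and robust moderation, and 0 with array median centring. The lower ones were 3 without a minimum. With 1 array left out they were 0 to 2 and 1 to 3. At an unadjusted *p* under 0.05, all tested clusters split into 1878 higher and 1005 lower as deposited, 1402 and 1380 with quantile normalization, 1032 and 1598 with array median centring and 437 and 3315 with neuron marker centring. Replicate numbers did not pair the mice, so the replicate block says little. Each member had 1 cluster, so a mean over clusters was not run. Fewer arrays lower the power, and signals near the minimum limit *Nt5e* and *Adora3*.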

Other observations

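Equal deposited values were uneven between the groups. Among all 41345 transcript clusters, 4834 (11.7%) held the same value in 2 or more of the 3 mutant arrays, and 122 (0.295%) in 2 or more of the 3 wild-type arrays. Among tested clusters the shares were 8.71% and 0.132%. Of the 8 measured genes of the main list, *P2rx7* and *Adora3* had such values, both among mutant mice. Of the wider pathway, *P2rx3*, *P2rx5*, *P2ry14*, *Slc17a9* and *Lrrc8a* did, and *P2rx3* and *P2ry14* were identical in all 3 mutant arrays. Clusters with equal values in a group had an unadjusted *p* under 0.05 in 11.3% of 1868, and those without in 13.9% of 19291. All 13 calls were among the latter, *Entpd1* included. The origin of the equal values was not tested.

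Of the wider pathway, 30 genes had a cluster and 14 were tested, and the others lay under the intensity minimum. Among those, *Enpp3* and *P2rx6* (lower) and *Slc17a9* (higher) had groups apart and an unadjusted *p* under 0.05 in limma's fit without the minimum. *Acpp* (lower), *P2ry2* and *Pnp* (higher) had groups apart without such a *p*. The share of all clusters in that fit was not counted, so these numbers are not read as a result. *Enpp3*, encoding an ectonucleotide pyrophosphatase, was 5.22, 5.13 and 5.06 in wild-type and 4.78, 4.82 and 4.69 in mutant mice, and *P2rx6* was 5.45, 5.61 and 5.77 against 5.38, 5.16 and 5.33. *Slc17a9*, encoding the vesicular nucleotide transporter that loads ATP into vesicles, was 5.45, 5.31 and 5.36 against 5.60, 5.57 and 5.57.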
